A study of Mus musculus with 27 samples.

Results

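Islets of mice whose Myc had been switched off for 6 days were compared with islets in which Myc had been kept active for 21 days. The comparison set the 3 arrays titled as regression with Myc off for 6 days against the 3 arrays titled as treated for 21 days, 6 of the 27 arrays of the series. It covered all 8251 genes of the array that have a single symbol, each read by the probe set with the highest mean over the 27 arrays. At an adjusted p under 0.05 (limma, Benjamini-Hochberg over all 12422 probe sets tested), 28 genes differed: 10 were higher and 18 were lower at 6 days off.

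All mice carried 2 transgenes under an insulin promoter, MycER and BclXL, so both are made in beta cells. MycER is Myc joined to the hormone-binding part of the estrogen receptor, and it acts while 4-hydroxytamoxifen is bound; the labels name tamoxifen for the daily injections of the long course and 4-hydroxytamoxifen in the sample titles. BclXL blocks cell death, and the untreated mice carried it too. The 21 day group was killed at the end of 21 days of daily injections, and the 6 day group received the same course and was killed 6 days after the last dose. Untreated mice of this genotype, and mice killed 2 or 4 days after the last dose, gave 3 arrays each and served as reference points. No ages and no mice given vehicle or lacking MycER are described in the labels used here. Islets were cut from tissue by laser capture, and such cuts can hold alpha, delta and vascular cells, leukocytes and neighbouring acinar cells besides beta cells. In such bulk samples, fewer cells of a type and less RNA per cell cannot be told apart. Replicates are numbered but not said to come from separate mice, so the spread that the p-values rest on may be technical.

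Myc is a transcription factor that pairs with Max on the DNA motif CACGTG, the E-box, and drives ribosome production, metabolism and cell division, while it lowers many genes of differentiated cells. Beta cells make and store insulin, which loads their endoplasmic reticulum (ER), where proteins are folded and checked. The unfolded protein response is the set of genes, Xbp1 at its head, that raises this folding capacity.

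Of the 28 called genes, 23 have a promoter in the RefSeq table used here (build GRCm38.p6), and 3 of these hold CACGTG within the 250 bases before the start, or 13.0%. Among the genes called lower this was 2 of 14, and among those called higher 1 of 9. The same motif stands in 653 of 6576 promoters of genes on the array (9.93%) and in 1854 of 27025 promoters of the whole table (6.86%). CACGTG reads the same on both strands, and no other motif was searched. The 3 promoters are printed because the experiment switches the factor that binds this motif; capitals mark the E-box, and each sequence runs 5′ to 3′ on the gene's strand. The start used by the table lies inside the annotated gene for Psma4 and Bzw2. A match is a description of the letters and not a binding site.
Bzw2, chr12:36156826-36157075, minus strand, E-box 91 to 86 bases before the start: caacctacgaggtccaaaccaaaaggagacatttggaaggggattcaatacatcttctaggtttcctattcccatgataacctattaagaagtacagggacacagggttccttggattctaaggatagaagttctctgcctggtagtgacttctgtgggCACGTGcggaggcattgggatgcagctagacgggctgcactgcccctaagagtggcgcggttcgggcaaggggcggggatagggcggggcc
D430019H16Rik, chr12:105453606-105453855, plus strand, E-box 34 to 29 bases before the start: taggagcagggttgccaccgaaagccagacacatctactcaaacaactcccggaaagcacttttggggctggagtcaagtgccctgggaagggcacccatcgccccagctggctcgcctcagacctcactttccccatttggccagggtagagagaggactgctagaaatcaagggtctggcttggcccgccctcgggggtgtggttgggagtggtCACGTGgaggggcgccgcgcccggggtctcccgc
Psma4, chr9:54950609-54950858, plus strand, E-box 140 to 135 bases before the start: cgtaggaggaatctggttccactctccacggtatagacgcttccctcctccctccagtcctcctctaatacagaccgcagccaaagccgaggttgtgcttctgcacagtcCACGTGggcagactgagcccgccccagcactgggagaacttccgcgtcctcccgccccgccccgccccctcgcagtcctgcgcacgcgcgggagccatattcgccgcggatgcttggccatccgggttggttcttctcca

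Levels below are log2 RMA values, so a difference of 1 is a factor of 2; a ± after a difference is its standard error (SE) from limma, a ± after a level is the standard deviation (SD), and each group has 3 arrays. The median of an array lay between 6.97 and 7.0 in both groups. The 3 arrays of the 21 day group correlated with r from 0.986 to 0.991 across probe sets, which are not independent replicates, and those at 6 days off with r from 0.957 to 0.985. Beta cell RNA was plain in all 6: the Ins2 probe set, for insulin, read 13.75, 13.72 and 13.70 at 21 days and 13.64, 13.73 and 13.84 at 6 days off. Replicate 1 at 6 days off stood apart. Its mean over 76 leukocyte markers was 7.90, against 7.05 and 6.77 in replicates 2 and 3 and 6.58 to 6.73 at 21 days. Over 6 erythroid markers it read 10.43, against 7.72 and 7.68, with 7.61 to 8.22 at 21 days. Over 19 acinar markers it read 9.40, against 7.57 and 8.13, with 7.12 to 7.64 at 21 days. The excess of 3′ over 5′ signal for Gapdh, a control for RNA length, was 4.77 to 4.92 at 21 days and 3.58 to 4.45 at 6 days off, without overlap, while that for actin overlapped, at 2.12 to 2.79 against 2.67 to 3.10. The part of these differences in the results was not tested beyond the fits with marker means or the Gapdh excess as covariates given below.

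**Figure D1:**
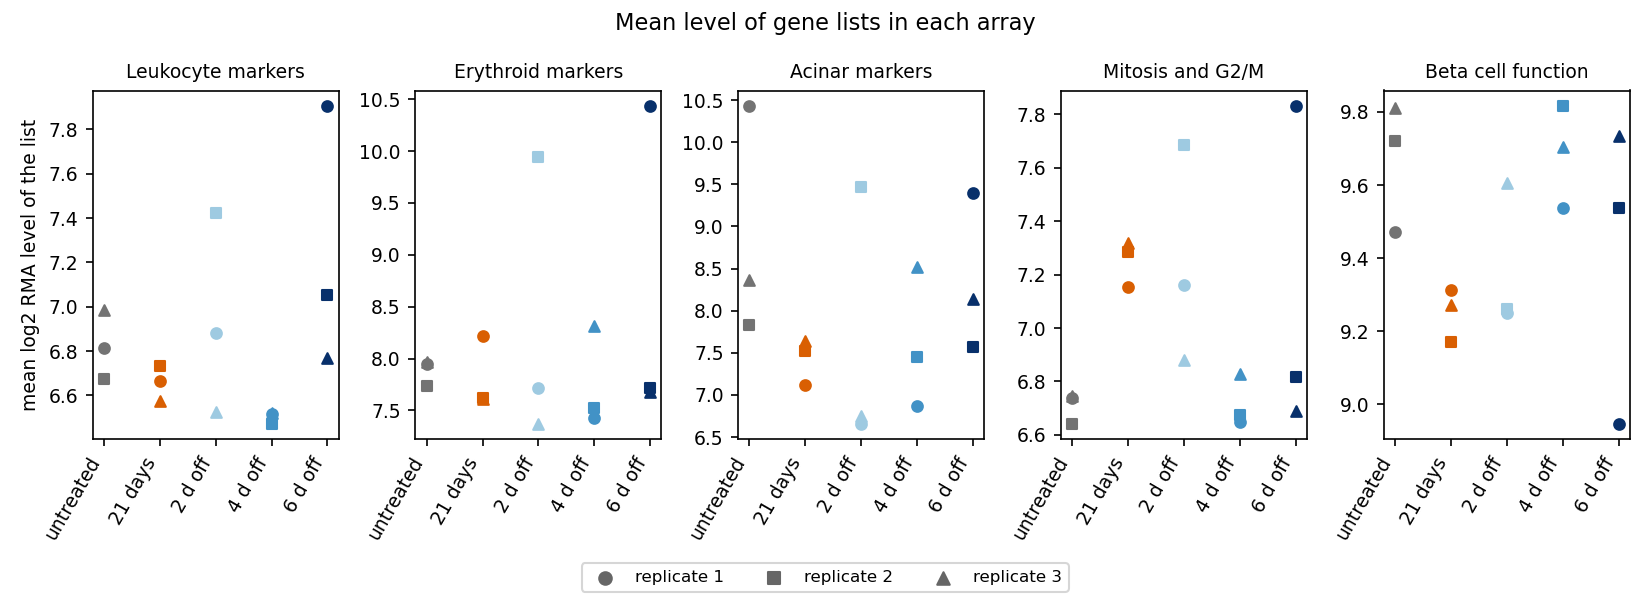
Mean log2 RMA level of 5 gene lists in each of 15 arrays; groups are on the horizontal axis and marker shapes give the replicate number. Replicate 1 at 6 days off lies highest of its group in the leukocyte, erythroid, acinar and mitosis lists and lowest in the beta cell function list, at 8.95.

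The 28 genes are 0.339% of the 8251 tested, 0.121% called higher and 0.218% called lower, and in each of the 28 the arrays of the groups did not overlap. Without a correction for the number of tests, 1221 genes passed p under 0.05 (14.8%), 503 higher (6.1%) and 718 lower (8.7%). The groups did not overlap in 1510 genes (18.3%). The median difference over all genes was −0.03. All 28 kept their sign in all 17 other settings tried. Their calls depended on single arrays: 11, 8 and 9 of the 28 stayed called without replicate 1, 2 or 3 of the 21 day group, and 13, 14 and 16 without replicate 1, 2 or 3 at 6 days off. Total counts in these fits were 13, 8 and 14, and 19, 19 and 31. Dlk1, Cox6b2, Cidea, Stmn4, Bzw2, Jun and Baiap2 stayed called in all 6 fits, and Crhr2, Psap, Rasal1 and Tsc1 in none. Of those 7, Bzw2, Jun and Baiap2 did not pass with acinar and leukocyte means as covariates (adjusted p = 0.0533, 0.0533 and 0.0566) or with leukocyte and erythroid means (adjusted p = 0.0512 for each). A fit of only the 6 arrays called 0 genes (1027 at unadjusted p under 0.05), with an adjusted p of 0.148 at the lowest, shared by Dlk1, Cox6b2 and others of the 28.

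**Figure D2:**
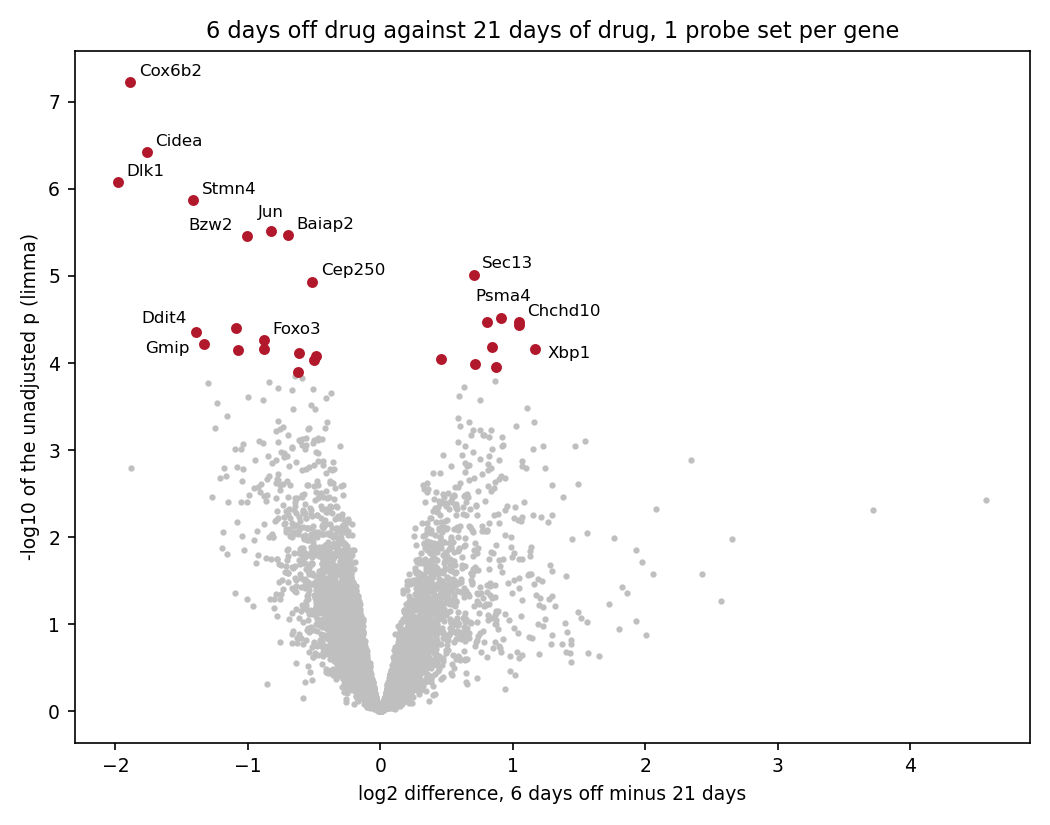
Log2 difference between 6 days off and 21 days of drug on the horizontal axis against −log10 of the unadjusted limma p on the vertical axis, with 1 point for each of 8251 genes. Red points are the 28 called genes, 15 of them named; the genes furthest to the right are not called.

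Among genes that fell, the steepest was Dlk1, an imprinted gene for a transmembrane protein with EGF-like repeats that holds back cell differentiation (101975_at, chromosome 12, 109452485 to 109463336). It read 11.39, 11.49 and 11.04 at 21 days and 8.58, 9.68 and 9.72 at 6 days off. Every array at 6 days off lay below every array at 21 days, and all lay above the untreated arrays, at 7.67, 7.75 and 7.40. Dlk1 was 3.94-fold lower than at 21 days (−1.98 ± 0.29, adjusted p = 0.00259, limma), and 1.72 ± 0.29 above untreated on the log2 scale (adjusted p = 0.000869). At 2 and 4 days off it averaged 10.62 and 10.25. In the list of imprinted and fetal islet genes, 1 of 32 fell and 0 rose, with a list median of −0.04. Of the 32, 4 were lower and 0 higher at an unadjusted p under 0.05, beside 8.7% and 6.1% of all genes. Meg3, the imprinted RNA that neighbours Dlk1, read 13.14, 13.13 and 13.35 at 21 days and 12.07, 12.95 and 11.44 at 6 days off (−1.05 ± 0.28, adjusted p = 0.0929). Its groups did not overlap but it did not pass; without replicate 2 at 6 days off it did, at −1.45 (adjusted p = 0.0153).

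Cox6b2 encodes a subunit of cytochrome c oxidase known from testis, and its level fell as steeply (97352_f_at, chromosome 7, 4751792 to 4753094). It read 9.02, 9.17 and 9.11 at 21 days and 7.98, 6.82 and 6.84 at 6 days off, against 6.27, 5.93 and 5.82 untreated. Replicate 1, the array that stood apart in the marker lists, was the highest of its group by over 1 unit. The fall was 3.70-fold (−1.89 ± 0.23, adjusted p = 0.000741), and −2.27 without replicate 1. Its other probe sets read differences of −0.53 and −0.11 and did not pass (adjusted p = 0.245 and 0.853), so the probe sets disagree in size. From untreated, these other probe sets differed by 0.68 and −0.51 at 6 days off (adjusted p = 0.0318 and 0.115, limma), so they disagree there in sign. In the list of 63 oxidative phosphorylation genes, 0 rose and 0 fell, 3 were higher and 0 lower at an unadjusted p under 0.05, and the list median was 0.04.

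Cidea, a protein of lipid droplets best known from brown fat, read 8.43, 8.99 and 9.39 at 21 days and 6.87, 7.42 and 7.24 at 6 days off, and its untreated arrays lay between 6.32 and 6.36. It fell 3.39-fold (−1.76 ± 0.24, adjusted p = 0.00158) and stayed above untreated by 0.84 ± 0.24 (adjusted p = 0.0281). Stmn4, a stathmin that binds tubulin (98486_at, chromosome 14, 66344210 to 66361680), read 8.40, 8.80 and 8.02 at 21 days and 7.20, 6.91 and 6.87 at 6 days off. Both genes thus had groups far apart, with 6 days off below 21 days in each array. Stmn4 fell 2.66-fold (−1.41 ± 0.21, adjusted p = 0.00336) to 6.99 ± 0.18 (SD, n = 3), against 6.85 ± 0.09 untreated. The difference from untreated was 0.15 ± 0.21 and did not pass (adjusted p = 0.709).

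**Figure D3:**
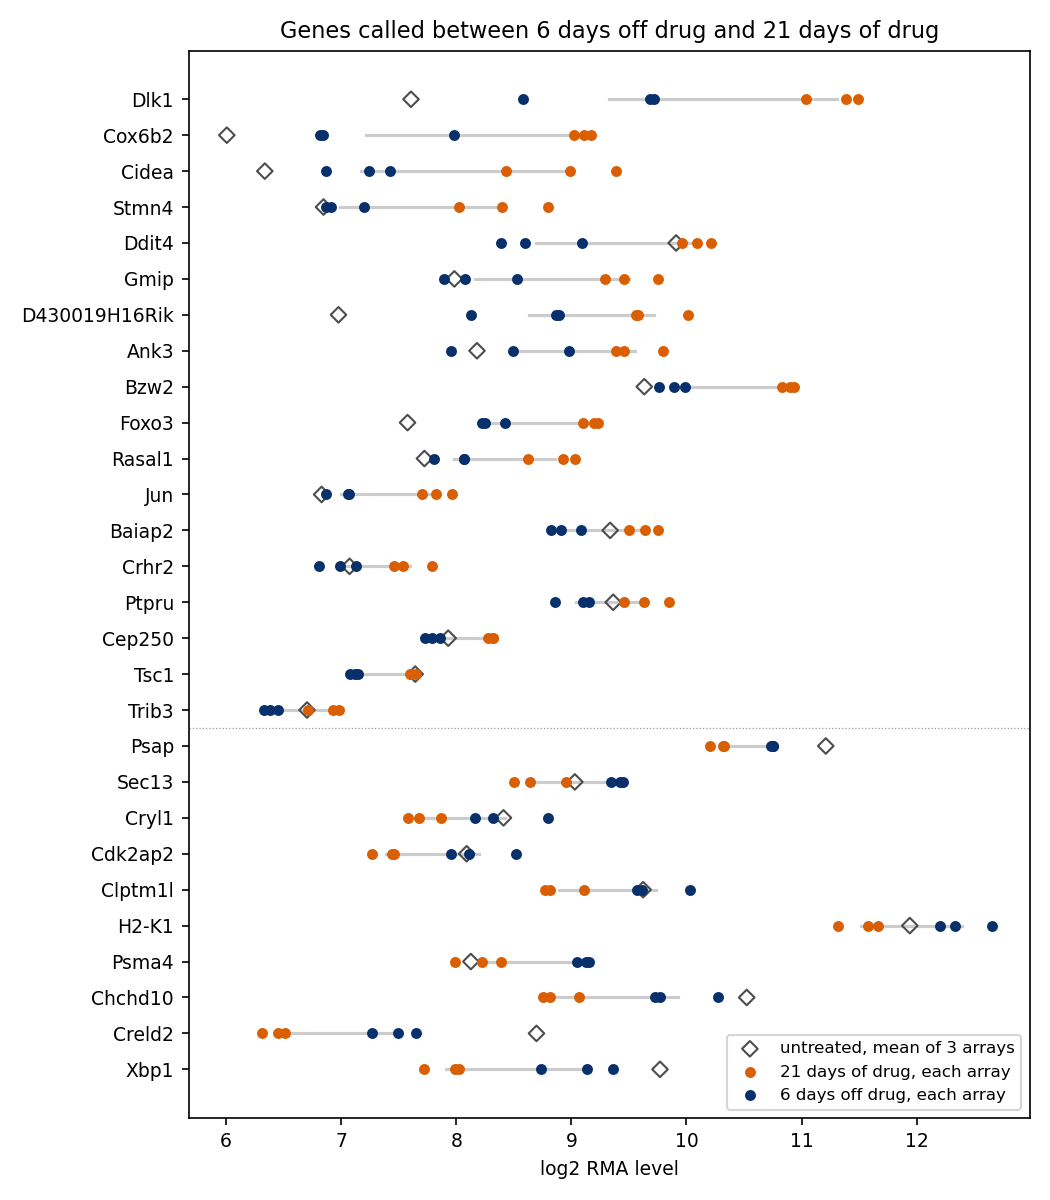
Log2 RMA level of the 28 called genes in the 3 arrays at 21 days (orange) and the 3 arrays at 6 days off (blue), with the untreated mean as an open diamond; the dotted line separates the 18 genes that fell from the 10 that rose. In each gene the orange and blue points do not overlap, and for Dlk1, Cox6b2 and Cidea the blue points lie between the orange points and the diamond.

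Genes of growth signalling and transcription were among the falls. Jun, a subunit of the AP-1 transcription factor (100130_at, chromosome 4, 95049036 to 95052222), read 7.96, 7.70 and 7.82 at 21 days and 6.87, 7.06 and 7.07 at 6 days off. The groups lay 0.83 ± 0.13 apart (1.77-fold lower, adjusted p = 0.00537), and 6 days off was within 0.17 ± 0.13 of untreated (adjusted p = 0.447). Jun was the single call in the list of 30 immediate early genes (0 higher, 1 lower, median −0.10). Of these 30, 2 were higher and 4 lower at an unadjusted p under 0.05, beside 6.1% and 8.7% of all genes. Foxo3, a forkhead factor held out of the nucleus by growth factor signalling, read 9.23, 9.10 and 9.20 at 21 days and 8.25, 8.22 and 8.42 at 6 days off. It fell 1.84-fold (−0.88 ± 0.17, adjusted p = 0.0381) and remained 0.72 ± 0.17 above untreated (adjusted p = 0.0101). Foxo3 lost its call in 5 of the 6 fits without 1 array (highest adjusted p = 0.099).

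Both Ddit4 and Tsc1, which restrain the growth kinase mTORC1, ended below their untreated levels. Ddit4 (103460_at, chromosome 10, 59949675 to 59951770) read 9.96, 10.21 and 10.09 at 21 days and 8.60, 9.09 and 8.39 at 6 days off, with 9.88, 9.71 and 10.14 untreated. Its level at 21 days overlapped the untreated arrays, and all 3 arrays at 6 days off lay below both. Ddit4 fell 2.63-fold (−1.39 ± 0.27, adjusted p = 0.0339) and was −1.22 ± 0.27 from untreated (adjusted p = 0.00595). Tsc1 read 7.65, 7.60 and 7.61 at 21 days and 7.12, 7.08 and 7.15 at 6 days off, a fall of 1.42-fold (−0.50 ± 0.10, adjusted p = 0.0381), and it was −0.53 ± 0.10 from untreated (adjusted p = 0.00272). A second probe set, with means of 3.26 and 3.09, read −0.17 from 21 days (adjusted p = 0.615). From untreated it differed by 0.09 (adjusted p = 0.719, limma), so the 2 Tsc1 probe sets disagree there in sign. Trib3, a pseudokinase induced by stress of the ER, was likewise below both (−0.49 ± 0.10 from 21 days, adjusted p = 0.0381; −0.32 ± 0.10 from untreated, adjusted p = 0.0433). So was Baiap2, an adaptor between membrane and actin, with 9.64, 9.50 and 9.75 at 21 days and 8.82, 9.08 and 8.91 at 6 days off (−0.69 ± 0.11, adjusted p = 0.00537; −0.40 ± 0.11 from untreated, adjusted p = 0.0225). A second Baiap2 probe set read −0.66 ± 0.18 (adjusted p = 0.108). Leaving out single arrays, Ddit4 lost its call in 5 of 6 fits, Trib3 in 5 and Tsc1 in 6, with highest adjusted p of 0.0933, 0.133 and 0.117.

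Bzw2, a relative of translation factor eIF5 and carrier of an E-box printed above, read 10.90, 10.83 and 10.93 at 21 days and 9.76, 9.99 and 9.89 at 6 days off. The arrays within each group lay close together, and the groups were 2.01-fold apart (−1.01 ± 0.16, adjusted p = 0.00537). Untreated islets averaged 9.63, and 6 days off did not pass against them (0.25 ± 0.16, adjusted p = 0.357). D430019H16Rik, whose promoter also holds the motif, read 9.56, 9.58 and 10.01 at 21 days and 8.13, 8.87 and 8.89 at 6 days off (−1.09 ± 0.21, adjusted p = 0.0327), and stayed 1.65 ± 0.21 above untreated (adjusted p = 9.77e-05). It lost its call in 4 of the 6 fits without 1 array (highest adjusted p = 0.121).

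The other genes that fell span cell structure and signalling. Gmip fell by 1.33 ± 0.27 on the log2 scale (adjusted p = 0.0381). For Ank3, ankyrin-G, which ties membrane proteins to spectrin, the fall was 1.08 ± 0.22 (adjusted p = 0.0381), while another probe set read −0.59 and did not pass (adjusted p = 0.292). Rasal1, a GTPase activator for Ras, differed by −0.88 ± 0.18, Ptpru, a receptor tyrosine phosphatase, by −0.61 ± 0.12, and Cep250, a linker of centrosomes, by −0.51 ± 0.09 (adjusted p = 0.0381, 0.0381 and 0.0144). Crhr2, a receptor for urocortins, differed by −0.62 ± 0.13 (adjusted p = 0.0459), with 0.00 on a second probe set that read 4.41 in both groups, in the range of the controls for bacterial transcripts. Those 15 controls averaged 3.57 to 7.10 (median 4.10), and a level in that range may be background. The 6 day means of the called Crhr2 probe set, Stmn4 and Jun, both means of Trib3 and the 21 day mean of Creld2 lay in it too. Gmip, Ank3 and Ptpru each kept the call in 1 of the 6 fits without 1 array and Cep250 in 3, with highest adjusted p of 0.125, 0.133, 0.146 and 0.0689.

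Among genes that rose, Xbp1 was the largest change. Xbp1 (94821_at, chromosome 11, 5520641 to 5525993) read 7.99, 7.72 and 8.02 at 21 days and 8.74, 9.14 and 9.36 at 6 days off, against 9.73, 9.77 and 9.81 untreated. The 3 groups did not overlap, and 6 days off lay between the others. It rose 2.25-fold (1.17 ± 0.24, adjusted p = 0.0381), and the remaining distance from untreated did not pass (−0.69 ± 0.24, adjusted p = 0.0639). Creld2, an ER protein induced when folding is overloaded (160119_at, chromosome 15, 88819646 to 88826681), read 6.45, 6.51 and 6.31 at 21 days and 7.27, 7.49 and 7.65 at 6 days off. It rose 2.07-fold (1.05 ± 0.20, adjusted p = 0.0324) and remained 1.23 ± 0.20 lower than untreated, where it read 8.78, 8.65 and 8.66 (log2 difference −1.23, adjusted p = 0.000763). Each lost its call in 5 of the 6 fits without 1 array (highest adjusted p = 0.118 and 0.0964).

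In the list of 61 genes of the unfolded protein response and ER folding, 2 rose (Xbp1, Creld2), 1 fell (Trib3) and 58 did not pass. The list median was 0.18 against −0.03 over all genes. At an unadjusted p under 0.05, 18 of the 61 were higher and 3 lower, beside 6.1% and 8.7% of all genes. Several chaperones and folding enzymes that did not pass had groups without overlap; they were picked after their values were seen. Manf, a secreted ER stress protein, read 8.14, 8.03 and 8.02 at 21 days and 8.66, 9.07 and 9.91 at 6 days off (1.15 ± 0.30, adjusted p = 0.0924). Dnajc3, a cochaperone, differed by 0.94 ± 0.27 (adjusted p = 0.122), but its 3 other probe sets read 0.16, −0.02 and −0.00. Pdia6, a disulfide isomerase, differed by 0.89 ± 0.29 (adjusted p = 0.168; other probe sets 0.31 and 0.87), and Hsp90b1, the ER form of Hsp90, by 0.72 ± 0.23 (adjusted p = 0.156). Ero1b, the oxidase that serves insulin folding, differed by 0.76 ± 0.19 (adjusted p = 0.0844) and passed with the leukocyte and acinar means as covariates (0.99, adjusted p = 0.0364). Replicate 1 at 6 days off was the lowest array of its group for Xbp1, Creld2, Manf, Dnajc3, Pdia6, Hsp90b1 and Ero1b, and without it the list median was 0.30.

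**Figure D4:**
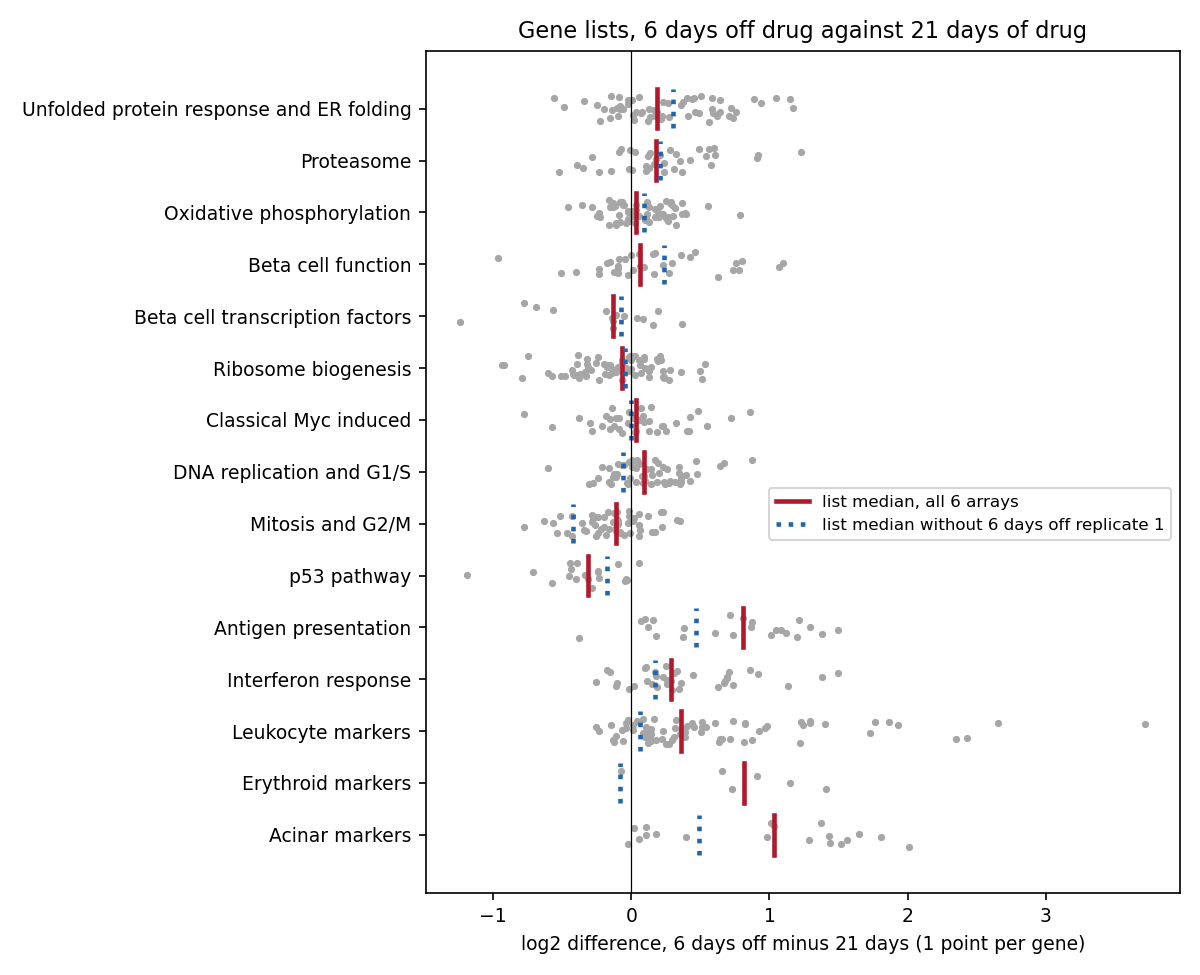
Log2 difference between 6 days off and 21 days for each gene of 15 lists, 1 grey point per gene; solid red bars are list medians over all 6 arrays and dotted blue bars are medians without replicate 1 at 6 days off. The antigen presentation median is 0.81 with all arrays and 0.47 without that replicate, and the erythroid median moves from 0.82 to −0.08.

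Sec13, a coat protein of vesicles that leave the ER (95091_at, chromosome 6, 113728052 to 113740681), read 8.95, 8.64 and 8.50 at 21 days and 9.34, 9.42 and 9.45 at 6 days off. It rose 1.63-fold (0.71 ± 0.12, adjusted p = 0.0133), and 6 days off also lay above all 3 untreated arrays, by 0.37 ± 0.12 (adjusted p = 0.0512). Psma4, a subunit of the proteasome core and the third gene with a printed E-box, read 8.22, 7.99 and 8.39 at 21 days and 9.05, 9.15 and 9.13 at 6 days off. Untreated islets, at 8.18, 8.00 and 8.20, overlapped the 21 day arrays, and Psma4 at 6 days off stood above both. It rose 1.88-fold (0.91 ± 0.17, adjusted p = 0.0324) and exceeded untreated by 0.98 ± 0.17 (adjusted p = 0.00111). Psma4 lost its call in 4 of the 6 fits without 1 array and Sec13 in 2 (highest adjusted p = 0.0991 and 0.078).

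Of 37 proteasome genes, 1 rose and 0 fell, 27 differences were above 0, beside 43.0% of all genes, and the median was 0.18. At an unadjusted p under 0.05, 13 were higher and 1 lower, beside 6.1% and 8.7% of all genes. Psmc2, an ATPase of the proteasome cap, read 9.58, 9.23 and 9.05 at 21 days and 9.89, 10.38 and 10.35 at 6 days off (0.92 ± 0.24, adjusted p = 0.0911). Its groups did not overlap, nor did those of the core subunit Psmb3 (0.60 ± 0.15, adjusted p = 0.0844) or Psmb5 (1.23 ± 0.32, adjusted p = 0.0911; a second probe set read −0.08). These were named after their values were seen.

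Chchd10, a protein of the mitochondrial intermembrane space (96900_at, chromosome 10, 75933130 to 75937750), read 9.07, 8.75 and 8.81 at 21 days and 9.73, 9.77 and 10.27 at 6 days off, against 10.30, 10.68 and 10.59 untreated. The 3 groups did not overlap, with 6 days off in the middle. It rose 2.07-fold (1.05 ± 0.20, adjusted p = 0.0324) and did not pass against untreated (−0.60 ± 0.20, adjusted p = 0.0554). Psap, the precursor of the saposins of lysosomes, rose by 0.46 ± 0.10 (adjusted p = 0.0381), Cdk2ap2, a partner of Cdk2, by 0.80 ± 0.15 (adjusted p = 0.0324), and Clptm1l, a membrane protein, by 0.84 ± 0.17 (adjusted p = 0.0381). Cryl1, an enzyme of sugar acid metabolism, rose by 0.72 ± 0.15 (adjusted p = 0.04) to 8.43 ± 0.33, beside 8.41 ± 0.15 untreated (SD, n = 3). Other Psap probe sets read 0.09 and 0.09 and did not pass. A second Cryl1 probe set read −0.05 (adjusted p = 0.955), and the mean of both was 0.33 and did not pass (adjusted p = 0.321). Of the 6 fits without 1 array, Chchd10 and Clptm1l lost the call in 3, Cdk2ap2 in 4, Cryl1 in 5 and Psap in 6, with highest adjusted p of 0.0933, 0.119, 0.0952, 0.141 and 0.145.

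H2-K1, a heavy chain of class I MHC, which presents peptides to T cells, read 11.58, 11.66 and 11.32 at 21 days and 12.65, 12.33 and 12.20 at 6 days off. It rose 1.83-fold (0.87 ± 0.18, adjusted p = 0.0419) and did not pass against untreated (0.45 ± 0.18, adjusted p = 0.12). The call was lost in 5 of the 6 fits without 1 array (highest adjusted p = 0.157), after quantile normalization (adjusted p = 0.0675) and with the Gapdh excess as a covariate (adjusted p = 0.228). The probe set, 93120_f_at, is of a kind whose probes are shared between related transcripts; others named H2-K1 read 1.0 (adjusted p = 0.0691) and 0.13 (adjusted p = 0.637). H2-D1, another class I gene, lay just outside the threshold (0.87 ± 0.19, adjusted p = 0.0521), while its other probe sets read 1.44 ± 0.29, which passed (adjusted p = 0.0381), and 0.28 ± 0.21, which did not (adjusted p = 0.596). Closely related class I genes share sequence, so which of them gave the signal is uncertain.

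In the antigen presentation list, 1 of 23 rose and 0 fell, beside 0.121% and 0.218% of all genes. Yet 22 of the differences were above 0, as were 43.0% of all genes, and the median was 0.81. Psmb8, a subunit of the immune form of the proteasome, read 8.17, 7.75 and 7.80 at 21 days and 10.35, 9.32 and 8.54 at 6 days off (1.5 ± 0.44, adjusted p = 0.128). B2m, the light chain of class I, read 10.60, 10.25 and 10.15 at 21 days and 11.48, 11.24 and 11.32 at 6 days off (1.01 ± 0.38, adjusted p = 0.236). H2-Eb1, a class II chain of B cells and other presenting cells, differed by 1.29 ± 0.42 (adjusted p = 0.168). Replicate 1 was the highest of its group in all of these. The leukocyte markers moved the same way: 65 of 76 differences were above 0, with a median of 0.36, and 0 passed. At an unadjusted p under 0.05, 15 were higher and 2 lower, beside 6.1% and 8.7% of all genes. Ptprc, the CD45 protein of all leukocytes, read 6.11, 6.13 and 6.51 at 21 days and 8.59, 7.71 and 6.18 at 6 days off, so the groups overlapped. Ighm, the heavy chain of IgM from B cells, read 8.25, 8.27 and 8.20 at 21 days and 13.38, 11.31 and 11.19 at 6 days off, without overlap (3.72 ± 1.18, adjusted p = 0.16), and 1 untreated array read 12.02; other probe sets named Ighm read from −0.10 to 3.29. The T cell marker Cd3e read 7.74, 7.75 and 7.58 against 7.78, 7.66 and 7.68. Without replicate 1 the medians were 0.47 for antigen presentation and 0.06 for the leukocyte markers. With leukocyte and acinar means as covariates H2-K1 had an adjusted p of 0.0949. Of the 37 interferon response genes 0 passed and 31 were above 0 (median 0.29, and 0.18 without replicate 1). At an unadjusted p under 0.05, 10 were higher and 0 lower, beside 6.1% and 8.7% of all genes.

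Cell division genes showed how far 1 array could carry a group. Mki67, a protein of dividing cells, read 6.69, 6.91 and 7.57 at 21 days and 8.99, 5.45 and 5.03 at 6 days off, with 5.91, 5.84 and 6.37 untreated. Replicate 1 lay above every 21 day array and both others below every one of them, and the difference did not pass (−0.57 ± 0.74, adjusted p = 0.786). Top2a, the topoisomerase of dividing cells, had the same order, at 8.30, 5.90 and 5.79 against 6.39, 6.86 and 7.24. Another Mki67 probe set read a difference of 0.07 and did not pass (adjusted p = 0.861, limma), so the Mki67 probe sets disagree in sign. Of 56 genes of mitosis and G2/M 0 passed, 14 were above 0, beside 43.0% of all genes, and 42 below, with a median of −0.11. At an unadjusted p under 0.05, 1 was higher and 2 lower, beside 6.1% and 8.7% of all genes. Without replicate 1, 4 were above 0 and the median was −0.42, and without replicate 3 it was 0.08. The mean of the list was 7.16 to 7.32 at 21 days, 7.83, 6.82 and 6.69 at 6 days off and 6.64 to 6.75 untreated. In the same replicate 1, erythroid genes were high: Alas2, which starts heme synthesis in red cell precursors, read 11.49 against 7.49 and 7.30, and Klf1, an erythroid transcription factor, 9.44 against 6.92 and 6.80. The part of those cells in the cell division values was not tested beyond the fits with marker means as covariates. Among 62 genes of DNA replication and G1/S 0 passed (0 higher and 1 lower at an unadjusted p under 0.05; median 0.09, and −0.06 without replicate 1), and for Ccnd1, Ccnd2, Cdk4, Cdkn1a and Cdkn1b the groups overlapped.

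No gene passed in the list of the p53 pathway, which answers DNA damage and oncogenes. Of 19 members 6 were lower and 0 higher at an unadjusted p under 0.05, beside 8.7% and 6.1% of all genes, 18 differences were below 0, beside 4681 of 8251 over all genes, and the median was −0.31, or −0.18 without replicate 1. Ccng1, a cyclin induced by p53, read 8.18, 8.61 and 8.45 at 21 days and 6.55, 7.22 and 7.91 at 6 days off (−1.19 ± 0.41, adjusted p = 0.194). Mdm2, the ligase that removes p53, read 9.80, 9.67 and 10.03 against 9.28, 9.56 and 9.33 (−0.44 ± 0.11, adjusted p = 0.0911). In neither did the groups overlap, and Mdm2 passed after quantile normalization (−0.48, adjusted p = 0.0423). In the list of 40 apoptosis and Bcl2 family genes, Cidea was the single call, and the median was −0.07. Unadjusted, 6 of the 40 were higher and 4 lower at p under 0.05, beside 6.1% and 8.7% of all genes.

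Few genes that Myc is known to raise passed the test. Of 78 genes of ribosome biogenesis 0 passed, 30 were above 0, beside 43.0% of all genes, and 48 below, with a median of −0.07. At an unadjusted p under 0.05 there were 3 higher and 11 lower, beside 6.1% and 8.7% of all genes. Npm1, nucleophosmin of the nucleolus, read 10.74, 10.91 and 11.21 at 21 days and 10.60, 11.02 and 11.40 at 6 days off, so the groups overlapped. It remained 1.33 ± 0.28 above untreated (adjusted p = 0.00454). Ncl, nucleolin, differed by −0.38 ± 0.26 (adjusted p = 0.562). Nsun2, an RNA methylase, read 10.94, 10.85 and 11.39 against 9.95, 10.33 and 10.66, without overlap (−0.75 ± 0.20, adjusted p = 0.0972; other probe sets −0.36, −0.09 and −0.03), and it was named after its values were seen. Of 39 classical Myc-induced genes 0 passed (2 higher and 3 lower unadjusted, median 0.03), of 32 ribosomal proteins 0 (0 higher and 1 lower unadjusted, median −0.07), and of 63 translation factors and tRNA synthetases 1, Bzw2 (8 higher and 6 lower unadjusted, median −0.01). Of 30 genes known to be lowered by Myc, H2-K1 rose and Foxo3 fell, with a median of −0.04. In that list 4 were higher and 3 lower at an unadjusted p under 0.05, beside 6.1% and 8.7% of all genes.

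Within the Myc, Max and Mad family 0 of 15 genes passed, and the median was −0.18. At an unadjusted p under 0.05, 3 were lower and 0 higher, beside 8.7% and 6.1% of all genes. Mxi1, a partner of Max that represses E-box genes, read 8.01, 8.19 and 8.54 at 21 days and 7.10, 7.44 and 7.68 at 6 days off (−0.84 ± 0.24, adjusted p = 0.117). Its groups did not overlap. The mouse Myc probe set read 3.52, 3.81 and 3.52 at 21 days and 5.10, 4.04 and 3.90 at 6 days off, in the range of the bacterial controls (0.73 ± 0.49, adjusted p = 0.544), and its groups did not overlap. Esr1, the estrogen receptor gene whose hormone-binding part MycER carries, read 11.09, 10.01 and 10.30 at 21 days, 11.08, 11.87 and 11.94 at 6 days off and 12.00, 12.23 and 11.94 untreated. The groups at 21 days and 6 days off overlapped by 1 array, and the difference of 1.16 ± 0.28 did not pass (adjusted p = 0.0817); it passed without replicate 1 at 21 days (1.48, adjusted p = 0.0485) or at 6 days off (1.44, adjusted p = 0.046). Whether this probe set reads the fusion was not tested, and 3 other Esr1 probe sets read differences of −0.29 to 0.10. Bcl2l1, the gene of BclXL, differed by 0.35 ± 0.11 (adjusted p = 0.138; a second probe set read −0.04).

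No gene of either beta cell list passed. Of 35 genes of beta cell function 20 differences were above 0, beside 43.0% of all genes, and the median was 0.07. At an unadjusted p under 0.05 there were 7 higher and 1 lower, beside 6.1% and 8.7% of all genes. Without replicate 1, 28 were above 0 and the median was 0.24, and without replicate 3, 14 were above 0 and the median was −0.05. Abcc8, the sulfonylurea receptor of the beta cell potassium channel, read 9.97, 9.50 and 10.13 at 21 days, 10.48, 11.16 and 11.25 at 6 days off and 11.92, 11.55 and 11.77 untreated. Its groups did not overlap, at 1.10 ± 0.30 above 21 days (adjusted p = 0.108), but a second probe set read 0.04. Th, tyrosine hydroxylase, did not overlap either (1.07 ± 0.29, adjusted p = 0.106). Slc2a2, the glucose transporter, read 7.95, 9.18 and 10.24 at 6 days off, which spans the 21 day values of 9.04, 8.66 and 8.98, and it was −1.40 ± 0.42 from untreated (adjusted p = 0.032). Pdx1, a transcription factor that maintains beta cells, read 6.34, 5.91 and 5.89 at 21 days and 6.19, 6.41 and 6.64 at 6 days off (0.37 ± 0.20, adjusted p = 0.427), and −0.64 ± 0.20 from untreated (adjusted p = 0.0368). The Pdx1 levels at 21 days and 6 days off lay in the range of the bacterial controls. Of 15 beta cell transcription factors 0 passed, 2 were lower at an unadjusted p under 0.05, and the median was −0.13. Neurod1 differed by −0.78 ± 0.30 (adjusted p = 0.251), and its 6 day mean lay in the range of those controls too. The hormones Iapp, Gcg, Sst and Ppy differed by 0.07 ± 0.17, 0.09 ± 0.88, 0.09 ± 0.47 and −0.10 ± 0.58 with overlapping groups.

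**Figure D5:**
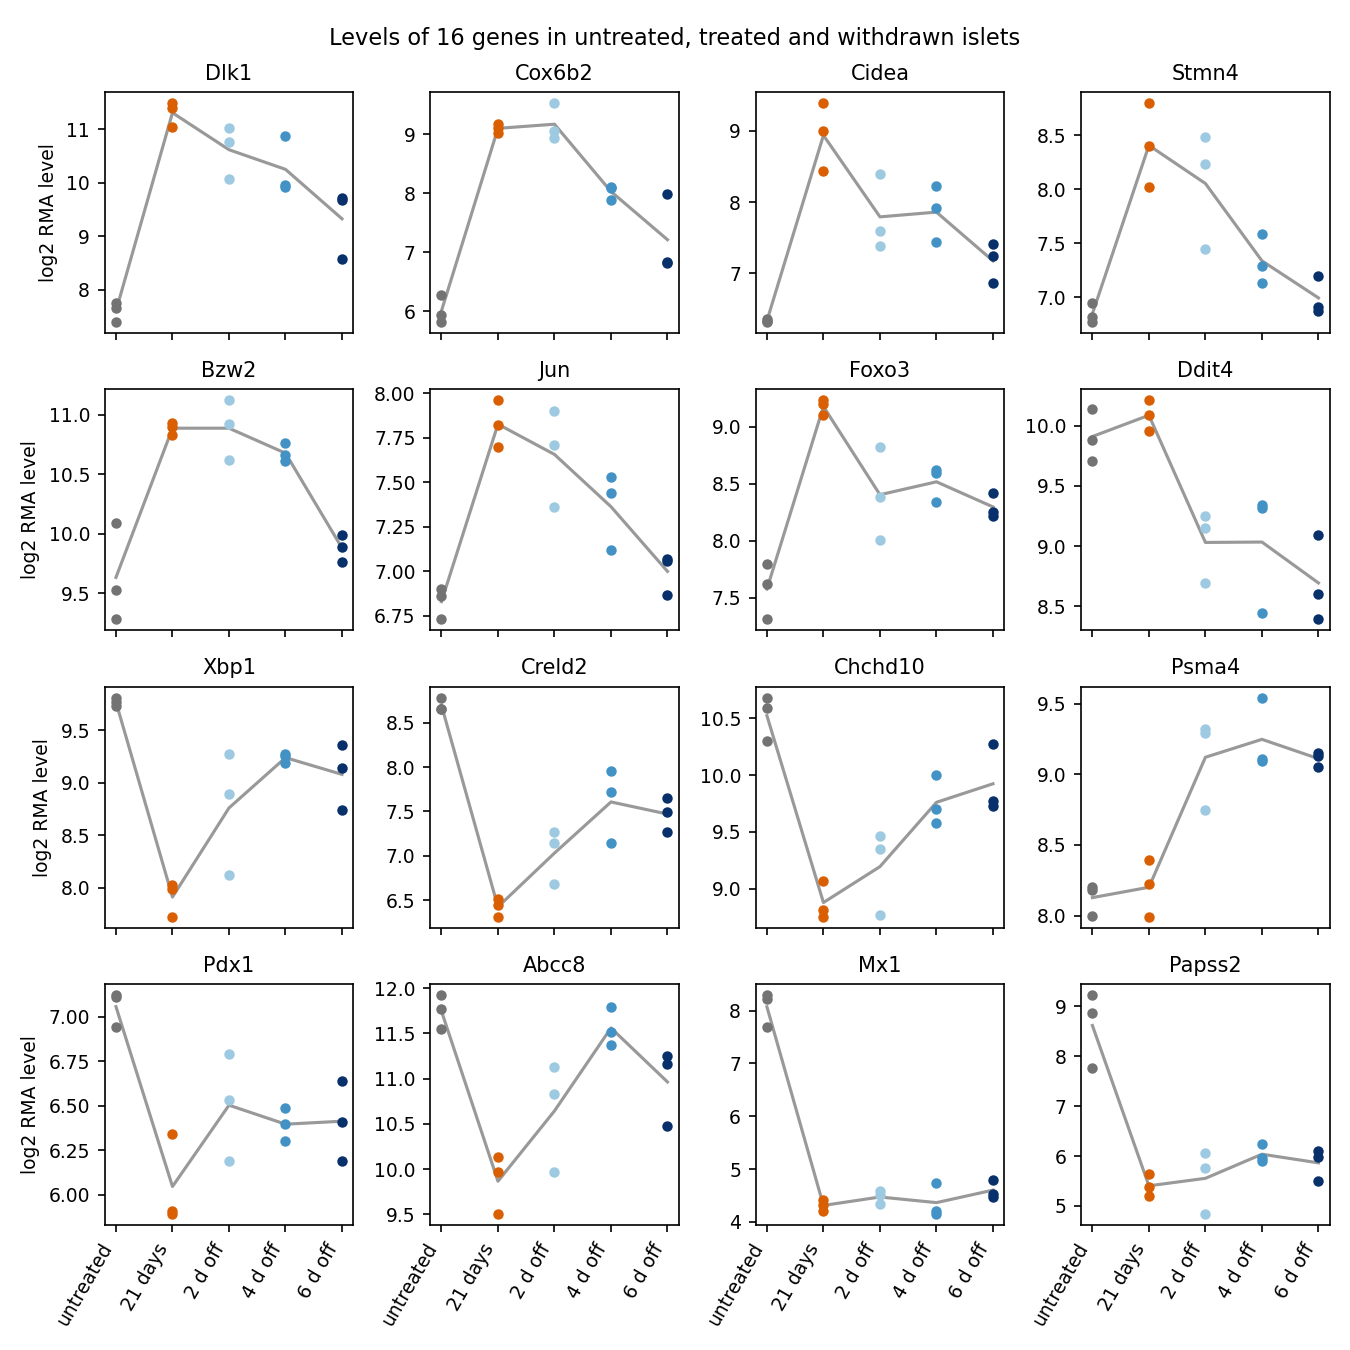
Log2 RMA level of 16 genes in untreated islets, at 21 days of drug and at 2, 4 and 6 days off, with 1 point per array, 3 arrays per group and a grey line through the group means; vertical axes differ between panels. At 6 days off the arrays of Stmn4, Jun and Bzw2 overlap the untreated arrays, while those of Mx1 and Papss2 lie below every untreated array.

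Against untreated islets, 6 days off still differed in 1115 genes (13.5%), 459 higher (5.56%) and 656 lower (7.95%). This comparison shares its 6 day arrays with the one above, so the values stand side by side only. Of the 18 genes that fell, 5 were called above untreated at 6 days off (Dlk1, Cox6b2, Cidea, D430019H16Rik and Foxo3), 4 below it (Ddit4, Baiap2, Tsc1 and Trib3), and 9 did not pass. Of the 10 that rose, 2 were called below untreated (Creld2 and Psap), 1 above it (Psma4), and 7 did not pass. A p that misses the threshold does not show that levels had returned. Other Psap probe sets differed from untreated by −0.20 and 0.22 (adjusted p = 0.246 and 0.268, limma). They disagreed in sign and did not pass. At 21 days, 13 of the 18 were called above untreated (7.95% of all genes) and 7 of the 10 below it (8.46%). The 28 genes were called with these same 21 day arrays, which partly fixes those counts, so nothing is read from them.

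Several of the largest distances from untreated lay in genes that did not pass against 21 days. Mx1, an antiviral GTPase, read 7.70, 8.29 and 8.23 untreated, 4.21, 4.41 and 4.31 at 21 days and 4.47, 4.53 and 4.80 at 6 days off (−3.47 ± 0.41 from untreated, adjusted p = 4.73e-05; 0.29 ± 0.41 from 21 days, adjusted p = 0.802). Its levels at 21 days and 6 days off lay in the range of the bacterial controls and may be background. Papss2, which supplies sulfate groups for matrix sugars, was −2.75 ± 0.32 from untreated (adjusted p = 4.73e-05) and 0.46 ± 0.32 from 21 days (adjusted p = 0.566). Nupr1, a stress-induced chromatin protein, was −2.32 ± 0.59 from untreated (adjusted p = 0.0127) and 0.21 ± 0.59 from 21 days. On the higher side stood Rufy3, which links vesicles to the cytoskeleton (2.31 ± 0.30 above untreated, adjusted p = 0.00012; 0.03 from 21 days). Rtn1, a reticulon of the ER, was 2.07 ± 0.55 above untreated (adjusted p = 0.0176), and Gadd45b, a stress response gene, 1.81 ± 0.35 (adjusted p = 0.00199). Of the 35 beta cell function genes 7 were lower and 0 higher than untreated (median −0.14, against 0.00 over all genes), among them Ppp1r1a, a phosphatase inhibitor, at −1.41 ± 0.28 (adjusted p = 0.00298). Of 29 angiogenesis genes 7 were lower and 0 higher, with Vegfa, the vascular growth factor, at −1.45 ± 0.27 (adjusted p = 0.00192) and its neighbour in role Tie1, an endothelial receptor, at −1.27 ± 0.28 (adjusted p = 0.0058; a second Tie1 probe set read −0.33, adjusted p = 0.382). Of the 37 proteasome genes 9 were higher and 1 lower, and of the 61 folding genes 5 were higher and 10 lower. Over all genes, 5.56% were higher and 7.95% lower than untreated, and each of these list counts is to be read beside those shares. Without replicate 1 of the untreated group, whose acinar marker mean was 10.42 against 7.83 and 8.36, 595 genes were called. The part of those cells was not tested beyond the fits with marker means as covariates, where acinar and leukocyte means left 715 genes called.

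Among the 28 genes, 1 was called at 2 days off against 21 days (Psma4) and 21 at 4 days off, 13 of the 18 called lower there too and 8 of the 10 called higher; these comparisons share the 21 day arrays that called the 28, so nothing is read from the counts. In all, 14 genes were called at 2 days (0.17%; 0.158% higher and 0.0121% lower) and 570 at 4 days (6.91%; 4.52% higher and 2.39% lower). The days off were also set against each other directly. Between 6 and 4 days off 0 genes passed (0.0%; smallest adjusted p = 0.102, limma), 1600 passed an unadjusted p under 0.05 (19.4%), and a fit with array weights called 1141; 15 genes were called without replicate 2 at 6 days off, 5 without replicate 3 and 1 without replicate 1, and 1 without replicate 3 at 4 days off. So 570 genes were called at 4 days and 28 at 6 days against 21 days, while no gene passed the direct test between those days.

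Between 6 and 2 days off 26 genes passed (0.315%), 2 higher (0.0242%) and 24 lower (0.291%). Cox6b2 read 9.05, 8.93 and 9.53 at 2 days off, above every array at 6 days off (−1.96 ± 0.23, 3.88-fold lower at 6 days, adjusted p = 0.000408). Its other probe sets read 0.02 and −0.25 and did not pass (adjusted p = 0.989 and 0.72, limma), so this fall rests on 1 probe set. Bzw2 read 11.12, 10.62 and 10.92 at 2 days off, overlapping the 21 day arrays, and was 2.01-fold lower at 6 days (−1.01 ± 0.16, adjusted p = 0.0107). Apaf1, the core of the apoptosome that activates caspases, averaged 6.56 at 2 days and 5.36 at 6 days off (−1.20 ± 0.19, adjusted p = 0.0106), in the range of the bacterial controls. Mxi1 fell from 8.70 to 7.41 (−1.30 ± 0.24, adjusted p = 0.0319), and Neurod1 from 7.10 to 5.70 (−1.41 ± 0.30, adjusted p = 0.0475). The 6 day level of Neurod1 also lay in the range of the bacterial controls. The rises were Pdxdc1 at 1.45 ± 0.29 (adjusted p = 0.0355) and Mep1b, a metalloprotease, at 0.83 ± 0.16 (adjusted p = 0.0349). The direction for Pdxdc1 is uncertain, since its other probe sets read 1.98 (adjusted p = 0.0475) and −3.10 (adjusted p = 0.129), and a second Mep1b probe set read 0.03 (adjusted p = 0.959). The count was 1, 96 and 3 without replicate 1, 2 or 3 at 2 days off, and 5, 47 and 7 without replicate 1, 2 or 3 at 6 days off. Replicate 2 at 2 days off read 7.42, 9.94 and 9.46 for the leukocyte, erythroid and acinar means, against 6.52 to 6.88, 7.37 to 7.72 and 6.66 to 6.75 in the others of its group. The part of such cells in these calls was not tested beyond fits with marker means as covariates. With acinar and leukocyte means 7 genes were called, all among the 26. With leukocyte and erythroid means 30 were called, 18 of them among the 26.

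Other lists had few or no calls. Their unadjusted counts stand beside 6.1% higher and 8.7% lower over all genes. No gene passed among 24 of cholesterol synthesis (1 higher and 2 lower at an unadjusted p under 0.05, median 0.13), 25 of glycolysis (3 and 2, median 0.00), 67 of mitochondrial ribosome and import (7 and 7, median 0.00) or 36 cytosolic chaperones (3 and 1, median 0.08). The same held for 58 ion channels (0 and 4, median −0.10), 81 matrix genes and proteases (3 and 4, median −0.01) and 75 chemokines and cytokines (6 and 0, median −0.00). Among markers of other cells, 0 of 24 endothelial, 0 of 30 stromal, 0 of 21 duct and 0 of 16 neural and glial genes passed (0 and 1, 0 and 2, 1 and 3, and 0 and 0 unadjusted), with medians of −0.01, −0.03, −0.03 and −0.01. Of 19 acinar markers 0 passed, adjusted or not, 18 were above 0 and the median was 1.03, or 0.49 without replicate 1 at 6 days off and 1.51 without replicate 2.

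Just inside the threshold of 0.05 lay Cryl1, H2-K1 and Crhr2, at adjusted p of 0.04, 0.0419 and 0.0459. Just outside were Svil, a protein that binds actin (−0.64 ± 0.14, adjusted p = 0.0504), D930048N14Rik (−0.59 ± 0.13, adjusted p = 0.0515), Zfp101 (−0.84 ± 0.18, adjusted p = 0.0521) and Fubp1, which binds single-stranded DNA upstream of Myc (−1.30 ± 0.29, adjusted p = 0.0521). Fubp1 read 9.54, 9.67 and 10.16 at 21 days and 8.43, 8.61 and 8.42 at 6 days off, without overlap, but other Fubp1 probe sets read 0.30 ± 0.14 (adjusted p = 0.34) and −0.09 (adjusted p = 0.86). Sar1a, the GTPase that builds the same vesicle coat as Sec13, was 0.63 ± 0.14 higher (adjusted p = 0.0557).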

How the data were processed

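RNA of laser-captured islets was measured on 27 arrays, 1 per sample and of 1 colour, in 9 groups of 3 taken from the labels. Per the labels, total RNA was amplified linearly in 2 rounds and labelled with biotin. The deposited values are log2 levels. The submitters' processing notes name RMA, whose version is not given in the sources used here, nor are scan dates. They were used without further scaling.

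Of 12488 probe sets, 66 controls were left out; 10833 have 1 symbol, 396 several and 1193 none, and 2073 of 8251 genes have more than 1. Positions and promoters are from RefSeq, GRCm38.p6. limma 3.58.1 in R 4.3.3 (lmFit, eBayes, 9 group means, 18 residual degrees of freedom, two-sided) was fitted on all 27 arrays, with Benjamini-Hochberg adjustment over 12422 probe sets. The fit was tested on 5 simulated tables with independent normal noise, at each probe set's spread pooled over the 9 groups. It found 39.2% of changes of 0.5 (log2), 82.2% of changes of 1 and 98% of changes of 2, with 5.16% of calls false. No array that stands apart, such as replicate 1 at 6 days off, was simulated, so these shares may not hold for this comparison. A permutation of 3 against 3 arrays cannot give p under 0.1, and 3 arrays per group limit the precision.

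Named genes are called genes whose groups do not overlap, the 4 largest called members of each of 43 lists (applied in each of 4 comparisons), the 8 largest rises and falls of the other comparisons and a fixed panel; all other genes named, such as Ighm, Alas2, Klf1, B2m, Psmb8, H2-Eb1, Ccng1, Mdm2 and those next to the threshold, were picked after their values were seen. The members and lists were chosen with earlier results of these data known; 1474 of 1864 list symbols matched. The deviations of same-numbered arrays of the 2 groups correlated at 0.03, −0.17 and 0.14, so the numbers were not taken to pair them.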

Additional observations from a re-analysis of the deposited data

Results flagged for a closer look

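For 4 of the genes that fell from 21 days to 6 days off, the change after 6 days differed from that after 2 days when the days off were tested directly against each other in limma. The log2 differences between 6 and 2 days off were −1.96 for Cox6b2, −1.06 for Stmn4, −1.01 for Bzw2 and −0.66 for Jun (adjusted p = 0.000408, 0.0355, 0.0107 and 0.0355). Other Cox6b2 probe sets read 0.02 and −0.25 and did not pass. At 2 days off Stmn4 read 8.23, 7.45 and 8.48 and Jun 7.71, 7.36 and 7.90, above every array at 6 days off. These genes were first called as low with the same 6 day arrays, which partly fixes this result. Over all genes, the test between 6 and 2 days off called 1 without replicate 1 at 2 days off and 3 without replicate 3. With only the 6 arrays it called 0. No group of 3 arrays was tested for outlying samples.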

How the results depend on the processing

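Over the other settings, 6 days off against 21 days called 56 genes after quantile normalization (13 higher, 43 lower), 894 with array weights (replicate 2 at 6 days off had weight 5.36), 0 with only the 6 arrays, 12 with a 2-fold minimum, 8 to 31 without 1 array, 9 with acinar and leukocyte means as covariates, 10 with the Gapdh excess and 10 with leukocyte and erythroid means, chosen after seeing the data. Of the 28 genes, 8 stayed called in each covariate fit: Cox6b2, Dlk1, Cidea, Stmn4 and Sec13 in all 3. Against untreated the counts were 1755 with array weights, 30 with the 6 arrays, 205 with a minimum of 2-fold, 715 with the acinar and leukocyte covariates and 595 to 1082 without 1 array. Against 4 days off they were 1141 with array weights and 0 to 15 without 1 array. Against 2 days off they were 17 after median centring, 42 without the lowest 40% of probe sets, 297 with array weights, 0 with the 6 arrays (769 at unadjusted p under 0.05), 16 with a minimum of 2-fold, 7 with those covariates, 65 with the Gapdh excess and 1 to 96 without 1 array. The cause of these shifts was not tested. Fits without 1 array or with only the 6 arrays also have fewer samples, and the part of that was not tested either. With the replicate number as a block, which these numbers do not pair, the counts were 34 against 21 days and 16 against 2 days off; 27 of the 28 genes stayed called. No difference of a called gene reversed.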
